A study of Rattus norvegicus with 4 samples.

Results

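The 2 untreated disease arrays of a rat heart study, labelled terminal heart failure and dTGR, were set side by side against the 2 other arrays, labelled SD control and losartan-treated dTGR. All 4 arrays of the series took part, with 2 on each side, and every probe set except the 59 controls of the chip was used, which left 8740 of 8799. Probe sets were ranked by the smallest of the 4 log2 differences between a disease array and an array of the other side, so that a high rank asks for a difference in both disease hearts and against both comparators. Total RNA of the left ventricle had been hybridised to Affymetrix oligonucleotide chips of the rat genome U34 set (chip A), 4 groups with a single array each. SD control is a Sprague Dawley rat. The dTGR are double transgenic rats that overexpress 2 human genes, those of renin and of angiotensinogen, and that develop high blood pressure, an enlarged heart and proteinuria and die early. The losartan group carried the same transgenes and received losartan, a drug that blocks the angiotensin AT1 receptor. The label of the terminal heart failure array names no genotype, and only the description shared by all 4 arrays, the control included, speaks of the transgenes. The sources used here give no ages, dose, duration of treatment, transgene promoters or number of animals per array. The sides do not match in genotype either, since a transgenic treated rat and a non-transgenic control stand together on the comparator side.

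Angiotensin II, the product of renin and angiotensinogen, raises blood pressure and acts on the heart through its AT1 receptor. A ventricle under pressure load is known to switch on a fetal gene program, of which the natriuretic peptides are the best known members, to lay down extracellular matrix and to use less fatty acid as fuel. Injury and overload also call on cytokines of the interleukin 6 family, which signal through the receptor subunit gp130 and the transcription factor STAT3 in cardiomyocytes.

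With 1 array per group there is no error between replicates, so no test was possible and all values below are descriptions of these 4 arrays, whose number limits their precision. Arrays were scaled to a common trimmed mean, and an intensity of 26.0, the 40th percentile of all values, served as the floor under which no order between values was read. The share of probe sets above the floor was 58.4% to 63.7%. All 10 cardiomyocyte markers on the chip, including Myh6, Pln and Nppa, were above the floor on all 4 arrays, so the defining markers of the labelled tissue were present. Chip lots were balanced, since each side had 1 array of each lot. Other technical differences were not, and both fell on the disease side. No other array shared the run day of the terminal one. The fluidics protocol of the dTGR array differed from the rest, recorded with 0 wash cycles of either kind and a first stain of 0 seconds. For the remaining 3 arrays these settings were 10 and 4 cycles and 600 seconds. The 100 brightest probe sets held 46.3% of the summed signal of the dTGR array and 31.8% to 36.9% on the others. The 3' to 5' signal ratio of Gapdh, a sign of RNA integrity, was 1.28 for terminal, 1.73 for dTGR, 2.17 for losartan and 1.34 for SD control, so the ratios of the 2 sides overlapped. The run day and the fluidics protocol cannot be told apart from the terminal and the dTGR group.

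A small set of genes separated both disease arrays from both comparators. A gene was counted as higher when all 4 differences reached 2-fold and it lay above the floor on both disease arrays, and as lower by the mirror of this rule. Of 3815 genes that reached the floor on any array, 20 were higher (0.524%) and 25 were lower (0.655%). Among 6533 probe sets the counts were 50 higher (0.765%) and 41 lower (0.628%). Scaling to the same median in place of the trimmed mean gave 14 genes higher and 31 lower, and 35 probe sets higher and 52 lower, so the balance of directions depended on the scaling. The 7 genes lost from the higher side under that scaling were Bcl2l1, Cebpd, Gda, Myl1, Pdlim5, Timp1 and Vsir, and Pip4k2c and Vldlr were lost from the lower side. With the floor at the 60th percentile, 10 of the 20 higher genes were still called, and Col8a1, Il6st, Spp1, Tgm1, Smad1 and Pdpn were among those that were not. The counts also depended on having all 4 arrays. Genes higher numbered 176 without the terminal array, 150 without dTGR, 54 without losartan and 77 without SD control, and genes lower numbered 102, 127, 68 and 69 in the same order. When only the sign was asked for, 472 genes (12.4%) had both disease arrays above both others and 774 (20.3%) had both below, and for probe sets the shares were 13.2% and 17.9%. Those sign-only shares are the background for every gene list below.

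**Figure D1:**
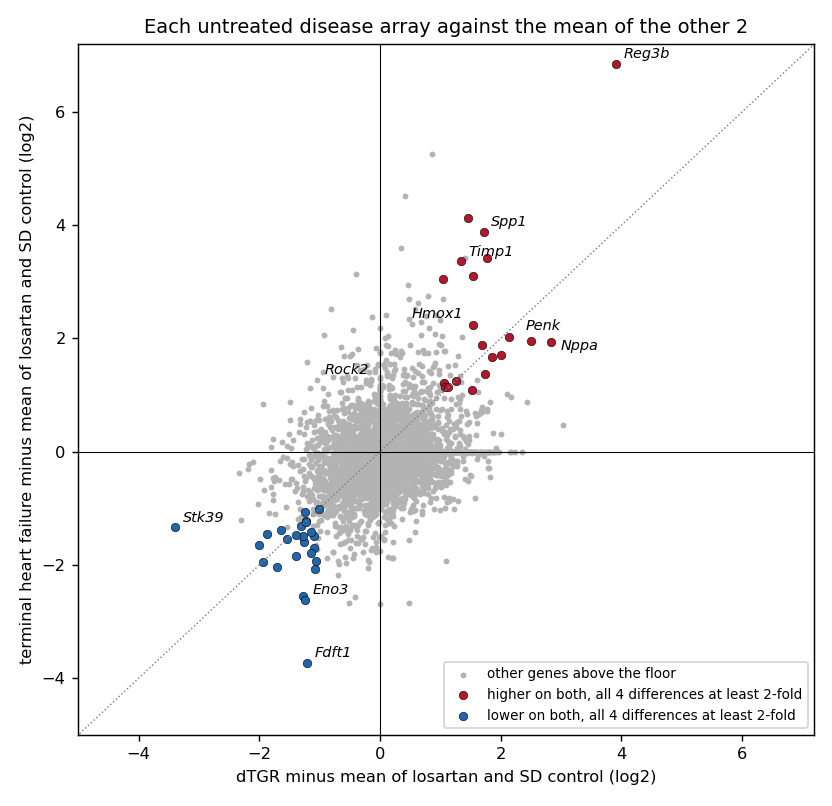
For each of 3815 genes, the log2 difference of the dTGR array from the mean of losartan-treated dTGR and SD control (horizontal axis) is plotted against that of the terminal heart failure array (vertical axis), with the 20 genes called higher in red, the 25 called lower in blue and a dotted line of equal differences. Reg3b stands far from all others at the upper right, Nppa and Penk lie to the dTGR side of the line and Spp1 and Timp1 to the terminal side.

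Reg3b, a small secreted lectin induced by interleukin 6 type cytokines, had the widest gap of the named genes. Its intensity was 3849 in terminal heart failure and 503 in dTGR, and 27.1 with losartan and 41.2 in SD control. The disease arrays did not come near the comparators, which lay just above the floor, and the smallest of the 4 fold differences was 12.2. Nppa, the precursor of atrial natriuretic peptide, was bright on all 4 arrays, at 11731 in terminal failure, 22028 in dTGR, 5403 with losartan and 1759 in SD control. Its smallest difference was 2.17-fold, between terminal failure and losartan, and the other 3 of its probe sets were called higher as well. Timp1, an inhibitor of matrix metalloproteinases, read 2416, 595, 285 and 193 in the same order, with a smallest difference of 2.08-fold that no longer reached 2-fold after scaling to the same median. A further probe set of Timp1 was also called, at 1684, 308, 69.7 and 56.2.

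These 3 secreted products of the stressed ventricle are shown with the 250 bases that precede their RefSeq start, read from RefSeq on the GRCr8 assembly and written 5' to 3' on the gene's strand, because a gp130 signal ends at STAT sites and the hypertrophy program has been tied to M-CAT sites. Capitals mark the letters of a STAT site (TTCNNNGAA), an M-CAT site (CATTCC, or GGAATG on the other strand) and a TATA box (TATAAA), searched on both strands.
Reg3b, chr4:112419526-112419775 (+): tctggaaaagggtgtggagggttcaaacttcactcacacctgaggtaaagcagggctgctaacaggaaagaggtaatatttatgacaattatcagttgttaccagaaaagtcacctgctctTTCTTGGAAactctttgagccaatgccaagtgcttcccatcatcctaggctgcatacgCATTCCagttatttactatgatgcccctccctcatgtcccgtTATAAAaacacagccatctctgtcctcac
Nppa, chr5:163711934-163712183 (+): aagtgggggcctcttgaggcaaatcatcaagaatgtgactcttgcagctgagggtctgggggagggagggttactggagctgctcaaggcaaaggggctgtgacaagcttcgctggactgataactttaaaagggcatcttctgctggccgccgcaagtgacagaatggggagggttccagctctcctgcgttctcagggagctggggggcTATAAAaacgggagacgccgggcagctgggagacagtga
Timp1, chrX:3771123-3771372 (-): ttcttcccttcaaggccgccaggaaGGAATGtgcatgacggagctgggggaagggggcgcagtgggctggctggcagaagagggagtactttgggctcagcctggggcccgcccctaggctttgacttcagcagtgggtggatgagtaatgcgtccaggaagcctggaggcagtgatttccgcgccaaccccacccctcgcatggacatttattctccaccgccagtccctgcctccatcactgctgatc
The Reg3b window held all 3 motifs, with the STAT letters from 129 to 121 bases before the start, the M-CAT letters from 71 to 66 and the TATA box from 29 to 24. The Nppa window held a TATA box from 39 to 34 bases before its start, and the Timp1 window an M-CAT match from 225 to 220. Over 27457 rat genes with promoter windows of the same length, 8.19% held the STAT letters, 12.9% the M-CAT letters and 14.1% the TATA box. Of the 20 higher genes 16 had an entry in the promoter table, and the 3 motifs were found in 2, 4 and 4 of them. Of the 25 lower genes 19 had an entry, with 1, 3 and 1. Further motifs were searched as well. The C/EBP letters were in 5 of the 16 and 7 of the 19 (38.7% of all genes), and NFAT-like letters in 4 and 4 (22.8%). AP-1, heat shock and CArG letters were in 0 of both sets. GATA, CRE and NF-kappaB letters were in 0, 0 and 1 of the 16 and in 2, 1 and 1 of the 19. A match is a description of the letters and not a site in use.

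Besides Reg3b, 2 higher genes were on the list of the interleukin 6 family, Il6st and Cebpd. Il6st encodes gp130, the signalling subunit shared by the receptors of this family, and read 98.4 in terminal failure, 111 in dTGR, 25.1 with losartan and 36.5 in SD control. The disease arrays were alike, and the smallest difference from a comparator was 2.70-fold. Cebpd, a transcription factor of the acute phase response, read 444, 151, 41.0 and 64.8, with the terminal array highest and a smallest difference of 2.33-fold. A second probe set of Cebpd was called as well (227, 74.0, 8.01 and 11), while the other, at 71.8, 112, 88.2 and 89.0, had terminal failure lowest and did not separate the sides. On the list of interleukin 6 family, acute phase and cytokine genes, 3 of 44 members above the floor were called higher and 0 lower, 14 had both disease arrays above both others and 2 had both below, and the median difference between the means of the sides was 0.40 on the log2 scale, against -0.01 over all genes. Orm1, an acute phase plasma protein, read 146, 52.1, 29.0 and 21.1, in the same order of arrays but short of 2-fold at its smallest difference of 1.79.

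Transcription factors and stress genes formed the next group. Atf3, a factor induced by many kinds of cell stress, read 528 in terminal failure and 168 in dTGR, while losartan and SD control were almost equal at 49.4 and 49.2. The smallest difference was 3.39-fold. Hmox1, the enzyme that breaks down heme, read 1079 and 673 on the disease arrays and 227 and 233 on the others, 2.88-fold apart at the least, and its other probe set was called too. Among the immediate early and stress signalling genes, 12 of 30 had both disease arrays above both others and 4 had both below, with a median of 0.43, but 1 was called higher (Atf3) and 1 lower (Id2). Gadd45a, a growth arrest gene, read 830, 721, 445 and 430, with the disease arrays 1.62-fold apart from the others at the least, although 2 of its other probe sets overlapped. Bcl2l1 encodes the survival factor Bcl-xL and read 121, 124, 48.8 and 54.0, level within each side and 2.25-fold apart at the least. It was not called after scaling to the same median, with the median over its probe sets or with the floor at the 60th percentile.

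**Figure D2:**
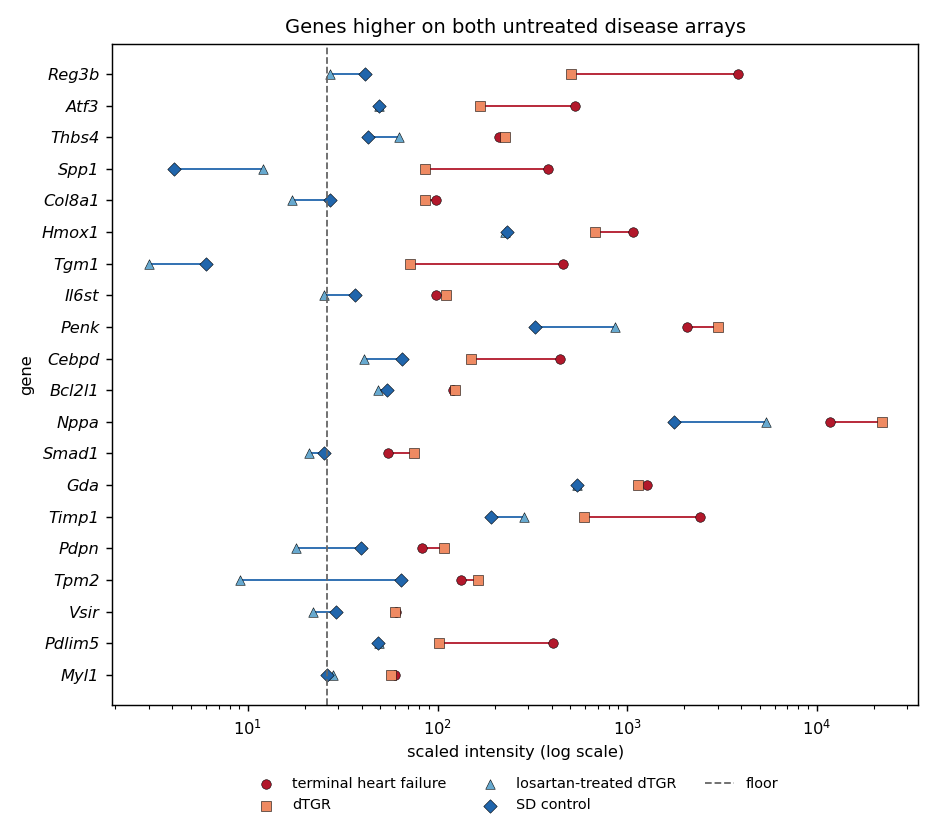
Scaled intensity on a log axis of the 20 genes higher on both untreated disease arrays, ordered by the smallest of their 4 differences, with circles for terminal heart failure, squares for dTGR, triangles for losartan-treated dTGR, diamonds for SD control and a dashed line at the floor of 26.0. The red bars between the disease arrays are long for Reg3b, Spp1, Tgm1, Timp1 and Pdlim5 and short for Thbs4, Bcl2l1, Gda, Vsir and Myl1, and the blue bars between the comparators are longest for Tpm2, Nppa and Penk once genes with both comparators under the floor are left aside.

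Matrix genes gave 3 higher calls and 1 lower. Thbs4, a thrombospondin of the matrix, read 212 in terminal failure, 228 in dTGR, 62.9 with losartan and 43.0 in SD control. Its disease arrays were nearly level, and the smallest difference was 3.37-fold. Spp1, or osteopontin, a secreted phosphoprotein of matrix and macrophages, read 384 and 86.0 on the disease arrays, and with losartan (12.0) and in SD control (4.08) it was under the floor, which gives a difference of at least 3.31-fold. Col8a1, a chain of the network-forming collagen VIII, read 97.9, 86.0, 17.0 and 27.1, with a smallest difference of 3.18-fold. Col15a1, a collagen of basement membranes, went the other way, at 43.4, 104, 261 and 246, a smallest difference of 2.35-fold.

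The brightest probe sets of the fibrillar collagens did not follow Spp1 and Thbs4. Col1a1, the main collagen of scar, read 1006, 1015, 1608 and 2163, so both disease arrays were below both others on this probe set, by 1.58-fold at the least. On 2 of its other probe sets the sides overlapped, with dTGR above losartan (729, 1231, 988 and 1538 on 1 of them). Col3a1 read 948, 2226, 3448 and 3811 on its brighter probe set and overlapped on the other (290, 873, 549 and 1549). Lum, a small proteoglycan that binds collagen fibrils, read 97.1, 191, 352 and 309, with both disease arrays below both others. Of 9 fibroblast markers above the floor 6 had both disease arrays below both others and 2 had both above, where the share lower over all genes was 20.3%, and their median was -0.41. Postn, periostin of activated fibroblasts, was 1 of those 2, at 104, 62.6, 34.9 and 15. In RNA of whole ventricle, fewer cells of a type and less RNA per cell cannot be told apart. Over the extracellular matrix list, 12 of 29 genes had both disease arrays above and 6 had both below, and the median was 0.29.

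Markers of macrophages moved with the higher genes. Of 9 macrophage and monocyte markers above the floor, 6 had both disease arrays above both others and 1 had both below, with a median of 0.76, although 0 reached 2-fold in all 4 differences. Lyz2, a lysozyme of phagocytes, read 2122, 1047, 685 and 583, Lgals3, or galectin 3, 556, 214, 143 and 124, and C1qb, a chain of complement C1q, 1186, 626, 460 and 462. Terminal failure was highest for each of the 3. The summed intensity of the 11 markers on the chip was 6149 in terminal failure, 4227 in dTGR, 3455 with losartan and 3743 in SD control, and 2 of the 11 were at or under the floor on all 4 arrays. Among neutrophil markers only 3 of 6 were above the floor, and Lcn2, lipocalin 2, read 1467 in terminal failure against 154, 147 and 99.1, so it set the terminal array apart and not the disease side. The part of these cells in the values of Spp1, Timp1 and Hmox1 was not tested.

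Genes of muscle structure and of the fetal program were mixed. On the hypertrophy list 7 of 15 genes had both disease arrays above both others and 1 had both below, 2 were called higher (Nppa and Tpm2), and the median was 0.69, the highest of the 20 pathway lists. Tpm2, beta-tropomyosin of slow and fetal muscle, read 133, 164, 9.04 and 64.1, so its smallest difference of 2.07-fold was set by SD control. Csrp3, a LIM protein of the Z-disc, read 5188, 4351, 2602 and 2378, and Nppb, the precursor of brain natriuretic peptide, 2793, 3804, 1995 and 2050. Both separated the sides, by 1.67-fold and 1.36-fold at the least, without reaching 2-fold. Myh7, the slow myosin heavy chain, Myh6, its adult rat counterpart, and Acta1, skeletal alpha-actin, did not separate the sides on the brightest probe set of each. Whether those probe sets tell the myosin heavy chains apart was not tested. Nor did Atp2a2, which encodes the calcium pump SERCA2, at 12951, 25652, 17324 and 14658. Acta1, for example, read 9278 in terminal failure and 16092 in dTGR, with losartan at 9847 and SD control at 6955, so losartan lay between the disease arrays. Pdlim5, a scaffold of the Z-disc, read 404, 101, 49.4 and 48.3, and Myl1, a light chain of fast muscle, 59.4, 57.0, 28 and 26.1, close to the floor, and neither was called under the other 3 scalings.

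The remaining higher genes are of varied function. Penk, the precursor of the enkephalin opioid peptides, read 2065, 3001, 863 and 327, at least 2.39-fold apart. Gda, guanine deaminase of purine breakdown, read 1267 and 1138 against 544 and 546, with both sides almost level and 2.09-fold apart at the least. Tgm1, a protein cross-linking enzyme best known from skin, read 457 and 71.3 against 3.0 and 6.03, at least 2.74-fold above the floor at which both comparators were set. Smad1, a mediator of bone morphogenetic protein signals, read 55.1 and 74.7 against 21.1 and 25.1, also both under the floor, a difference of at least 2.12-fold. Pdpn, podoplanin, a membrane glycoprotein of lymphatic endothelium, read 82.7 and 108 against 18.0 and 39.7. Vsir, an immune checkpoint protein, read 60.7 and 59.7 against 22.1 and 29.0, near the threshold at 2.06-fold.

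The 25 lower genes had varied functions, and 3 of them (Col15a1, Eno3 and Id2) were on a pathway list. Rxrg, the gamma form of the retinoid X receptor and the brightest of them on the comparator arrays, read 365 in terminal failure, 382 in dTGR, 997 with losartan and 1019 in SD control. Each side was level, and the smallest difference was 2.61-fold. A second probe set was called, at 27.1, 38.2, 101 and 155, and with the median over its probe sets the gene was not called. Bmyc, a member of the Myc family, read 35.5, 44.7, 134 and 158 and was 2.99-fold apart at the least. Id2, which blocks basic helix-loop-helix factors, read 58.5, 43.7, 175 and 146, a gap of 2.5-fold. Pnpla3, a lipid droplet enzyme, was under the floor on both disease arrays (23.0 and 4.0) and read 110 and 90.9 on the others, at least 3.5-fold higher there.

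Several lower genes encode metabolic enzymes or bind lipid. Eno3, the muscle form of the glycolytic enzyme enolase, read 95.4 in terminal failure and 247 in dTGR against 569 and 602, a smallest difference of 2.30-fold. Fdft1, squalene synthase of the sterol pathway, read 21.1 and 150 against 368 and 323, and all 3 of its other probe sets had both disease arrays below both others. Dhrs7c, an enzyme of the sarcoplasmic reticulum, read 115 and 150 against 339 and 303, just inside the threshold at 2.01-fold. Maob, the mitochondrial monoamine oxidase B, read 22.1 and 10.1 against 55.8 and 67, with both disease arrays under the floor. Vldlr, the very low density lipoprotein receptor, read 76.2 and 76.6 against 154 and 155, level within each side and 2.01-fold apart. Neither Vldlr nor Dhrs7c was called after quantile or cyclic loess scaling, and Vldlr was also lost after scaling to the same median.

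**Figure D3:**
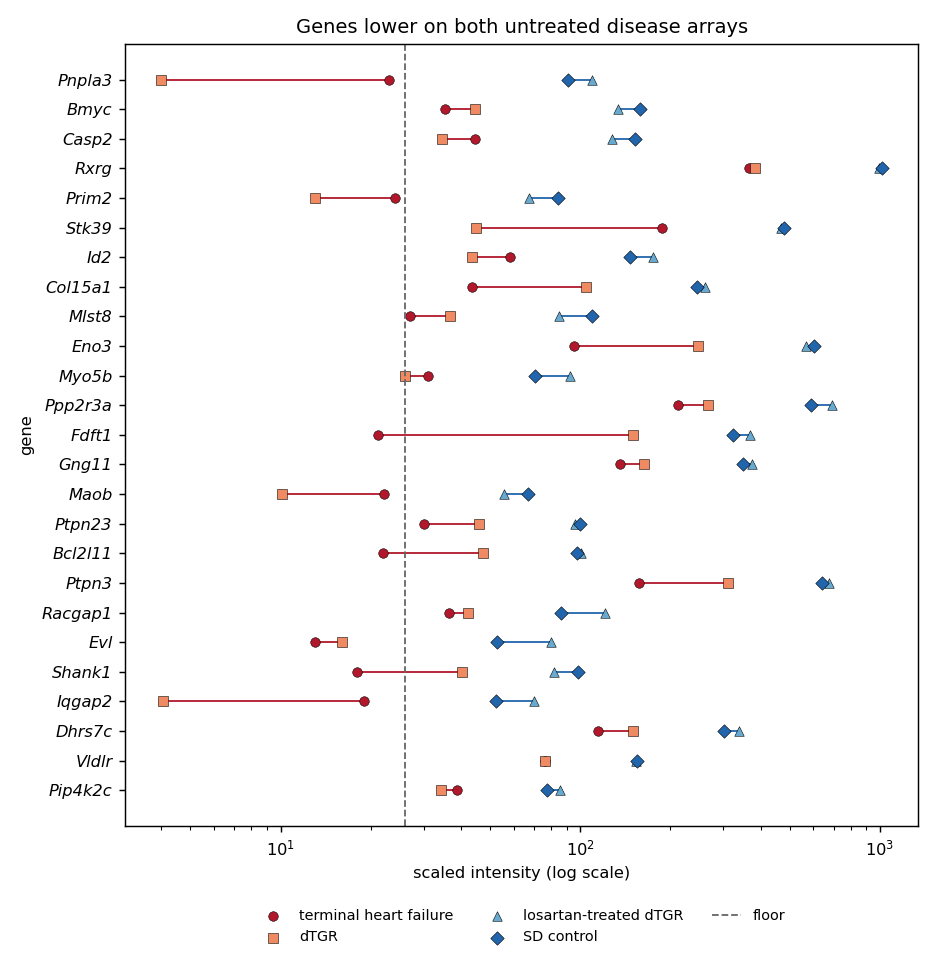
Scaled intensity on a log axis of the 25 genes lower on both untreated disease arrays, with the symbols used for the higher genes and a dashed line at the floor of 26.0. The comparator symbols lie within 1.25-fold of each other in 19 of the 25 rows and are 1.51-fold apart for Evl, whereas the disease symbols spread most for Fdft1, Stk39, Eno3 and Col15a1 once genes with both disease arrays under the floor are left aside.

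Among signalling genes, Stk39, a kinase that controls cation-chloride cotransporters, read 187 and 45.0 against 469 and 477, and Ppp2r3a, a regulatory subunit of protein phosphatase 2A, 212 and 267 against 691 and 590. The second probe set of Ppp2r3a was called too (177, 166, 403 and 474). For Stk39 another probe set, at 68.6, 120, 104 and 63.1, did not separate the sides. Gng11, a G protein gamma subunit, read 135 and 163 against 373 and 351, and Ptpn3, a tyrosine phosphatase, 157 and 312 against 678 and 643. Mlst8, a subunit of the mTOR complexes, read 27.1 and 36.8 against 85.0 and 110, with the disease arrays just above the floor. Casp2, an apoptotic caspase, read 44.6 and 34.7 against 127 and 153, but another of its probe sets had both disease arrays above both others (27.0 and 71.1 against 8.08 and 23.0). Ptpn23 likewise had a probe set that ran against its call. The direction of these 2 genes depends on the probe set.

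The rest of the lower genes were dim. Prim2, a DNA primase subunit, Evl, a regulator of actin filaments, and Iqgap2, a scaffold protein, were under the floor on both disease arrays, and their comparator values ran from 52.4 to 84.4. The 1 other probe set of Prim2 above the floor had no mean difference in the direction of the call. With the median over its probe sets Prim2 was not called. Bcl2l11, which encodes the death factor Bim, read 22 and 47.5 against 100.4 and 97.9. None of its other probe sets lay above the floor. The gene was not called with the median over its probe sets or with the floor at the 60th percentile. Racgap1, needed for cytokinesis, read 36.4 and 42.2 against 121 and 86.5. Myo5b, a motor of vesicle transport, read 31.0 and 26.0 against 92.2 and 70.8. Shank1, a scaffold of synapses, read 18.1 and 40.3 against 81.5 and 98.3, and Pip4k2c, a phosphoinositide kinase, 38.7 and 34.3 against 85.3 and 77.5.

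Genes of fatty acid use were lower by small steps. None of the 41 members above the floor was called, yet 20 had both disease arrays below both others and 5 had both above, where 20.3% and 12.4% of all genes did so, and the median difference was -0.38. Acadm, the medium-chain acyl-CoA dehydrogenase, read 1537, 1504, 2458 and 2417, level within each side and 1.57-fold apart at the least. Acaa2, the last enzyme of mitochondrial beta-oxidation, read 2621, 2980, 4485 and 4394, and Decr1, which handles unsaturated fatty acids, 623, 905, 1303 and 1311. The median of this list stayed between -0.47 and -0.24 under every other scaling, floor and probe set rule. Rxra, on the same list for its role as partner of fatty acid receptors, lay near the floor in the other direction at 47.4, 38.0, 26.0 and 19.1.

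Oxidative phosphorylation and glycolysis showed less. Of 40 genes of oxidative phosphorylation and the tricarboxylic acid cycle 9 had both disease arrays below and 0 had both above, with a median of -0.17. Over all genes 20.3% had both below, close to the share of this list, and 12.4% had both above. The median was -0.35 on the terminal array and 0.03 on dTGR, where it ran from -0.21 to 0.03 over 4 scalings. Uqcrc2, a core protein of respiratory complex III, read 2465, 2660, 4967 and 4005, and Sdha, of succinate dehydrogenase, 2425, 2524, 3457 and 3420. On the glycolysis list 9 of 30 had both below and 3 both above, with Eno3 the 1 called and a median of -0.15. Pygb, a glycogen phosphorylase, read 847, 1688, 2738 and 3064, and the sides overlapped on 1 of its other probe sets.

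Antigen presentation and interferon genes had a median of -0.39, next to the -0.38 of the fatty acid genes at the low end of the pathway lists. Of 26 members 9 had both disease arrays below both others and 1 had both above, with 0 called. Psme2, an interferon-induced activator of the proteasome, read 109, 129, 244 and 262, a smallest difference of 1.90-fold. Irf7, an interferon regulatory factor, read 132, 221, 385 and 351, and its dimmer probe set overlapped (27.0, 86.5, 101 and 85.9). Lck, a kinase of T cells, read 89.7, 87.6, 148 and 217, and of the 9 T and natural killer cell markers above the floor 2 had both disease arrays below and 1 had both above.

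Other lists gave few calls. Adrenomedullin, the vasodilator peptide encoded by Adm, read 239, 107, 60.7 and 53.2, and Ace, angiotensin converting enzyme, 334, 128, 95.1 and 86.0, both with terminal failure highest and dTGR next. Of the 30 renin-angiotensin, natriuretic and vasoactive genes above the floor 6 had both disease arrays above, 6 had both below and 0 were called. Agt, which encodes the rat's own angiotensinogen, was dim at 39.6, 37.7, 25 and 39.1 and did not separate the sides. Tgfb2, a growth factor of matrix synthesis, read 67, 129, 36.2 and 36.5, and 9 of 46 genes on its list had both disease arrays above and 7 both below. Hspb1, the small heat shock protein Hsp27, read 8746, 6586, 2082 and 3498, and 1 of its other probe sets was called, whereas Hspa9 and Hspe1, chaperones of mitochondria, were lower on both disease arrays by 1.38-fold and 1.37-fold at the least on their brightest probe sets, though not on the other 2 of Hspa9. Of the 36 ribosomal protein genes 12 had both disease arrays above and 0 both below, each by less than 1.5-fold at the least, and the median was 0.15.

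**Figure D4:**
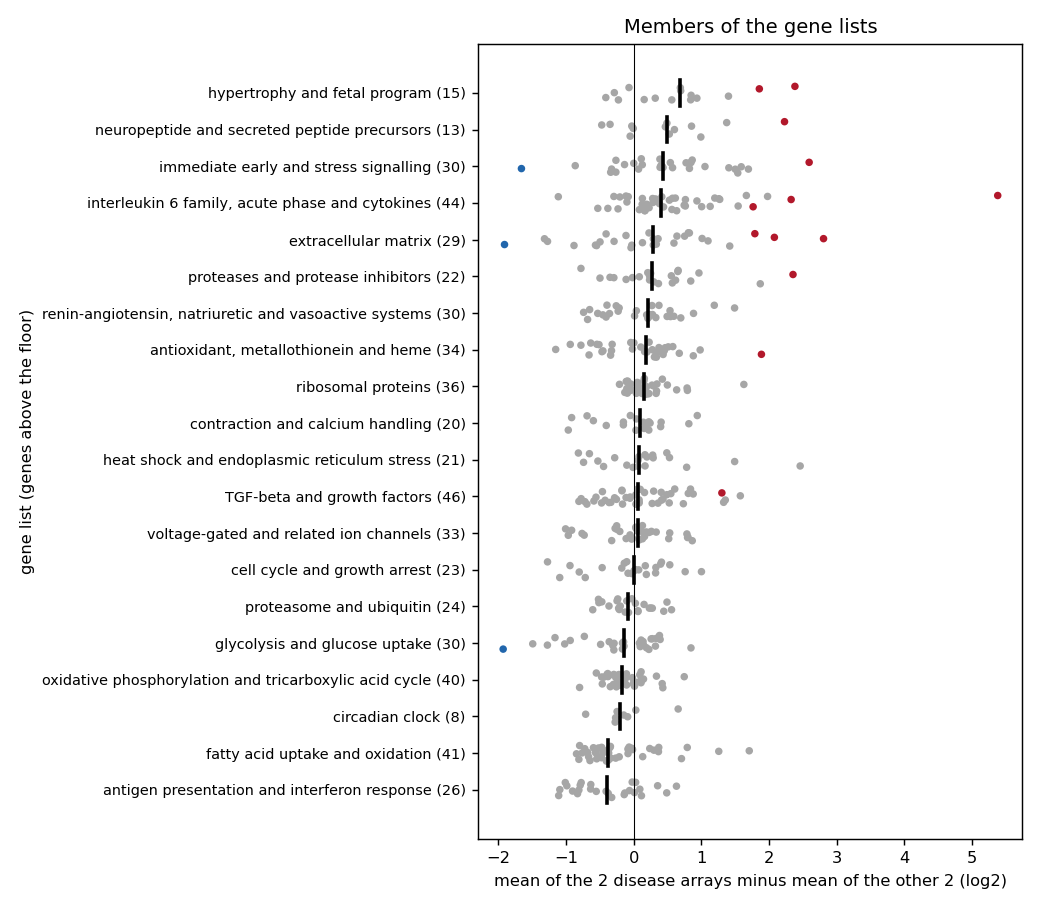
Each point is a gene of 1 of 20 pathway lists, placed by the mean log2 of the 2 disease arrays minus the mean of the other 2, with list medians as black bars, called genes in red (higher) and blue (lower) and the number of genes above the floor in brackets. Medians run from 0.69 for the hypertrophy list to -0.39 for antigen presentation, and most called genes lie in the upper rows.

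The medians of the sides hid differences between the 2 disease arrays. Immediate early genes had a median of 0.85 above the mean of the comparators in terminal failure and 0.28 in dTGR, and macrophage markers 1.13 and 0.44. Antigen presentation genes lay at -0.54 in terminal failure and -0.08 in dTGR. The dTGR medians depended on the scaling, and over 4 scalings they ran from 0.06 to 0.37 for immediate early genes, from 0.20 to 0.54 for macrophage markers and from -0.36 to -0.08 for antigen presentation genes, so the last gap mostly closed after scaling to the same median, at -0.52 and -0.36. Contraction and calcium handling genes pointed in opposite directions, with -0.34 in terminal failure and 0.52 in dTGR, but for dTGR this median ran from -0.19 to 0.52 over 4 scalings and changed sign, so only the terminal value held its direction. Scaling to the same median moved the median of all genes on the dTGR array from 0.02 to -0.15. Some lists moved further than all genes did. The cardiomyocyte median on dTGR was 0.70 in the main scaling and -0.15 after quantile scaling, where that of all genes was -0.01. Fibroblast markers were alike at -0.57 and -0.59 in the main scaling, but lay at -0.52 and -0.83 after scaling to the same median. Fatty acid genes, at -0.42 and -0.20, were below 0 on both disease arrays under all 4 scalings.

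Within the disease side the called genes were also uneven. Of the 20 higher genes, 7 were at least 2-fold brighter in terminal failure than in dTGR, 0 were the other way round and 13 were within 2-fold, a count of 7 that fell to 4 after scaling to the same median. The 7 were Reg3b, Atf3, Spp1, Tgm1, Cebpd, Timp1 and Pdlim5, and the gap reached 7.65-fold for Reg3b and 4.06-fold for Timp1. Nppa, at 1.88-fold, and Penk, at 1.45-fold, were instead brighter in dTGR. So were bright genes that were not called, namely Myh6 (1.84-fold), Myh7 (1.74-fold), Acta1 (1.73-fold) and Atp2a2 (1.98-fold). The bright genes Csrp3 and Hspb1 went the other way, by 1.19-fold and 1.33-fold. Whether the gap of Nppa differs from that of bright genes at large was not tested. Among the 25 lower genes, dTGR was at least 2-fold above terminal failure for 3, which were Eno3 (2.59-fold), Col15a1 (2.41-fold) and Fdft1 (at least 5.76-fold, with terminal failure under the floor). The reverse held for Stk39, at 4.16-fold. Over all 3815 genes 703 were at least 2-fold apart between the disease arrays, with a median gap of 0.47 on the log2 scale.

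The comparator side was tighter. The losartan and SD control arrays were within 1.25-fold of each other for 11 of the 20 higher and 19 of the 25 lower genes. For 3 of the 11 (Spp1, Tgm1 and Smad1) both lay under the floor, so their gap was 0 by construction. Over all 3815 genes 241 were at least 2-fold apart, with a median gap of 0.27 on the log2 scale. That median is itself under 1.25-fold, so most genes were this close. The call itself asks for no such closeness, but a wide gap on either side makes it harder to meet. Nppa and Penk were the higher genes with losartan at least 2-fold above SD control, by 3.07-fold and 2.64-fold, so for both the losartan array lay between the control and the disease arrays. Tpm2 was the 1 higher gene with losartan at least 2-fold lower, by at least 2.47-fold. No lower gene differed by 2-fold between losartan and SD control.

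**Figure D5:**
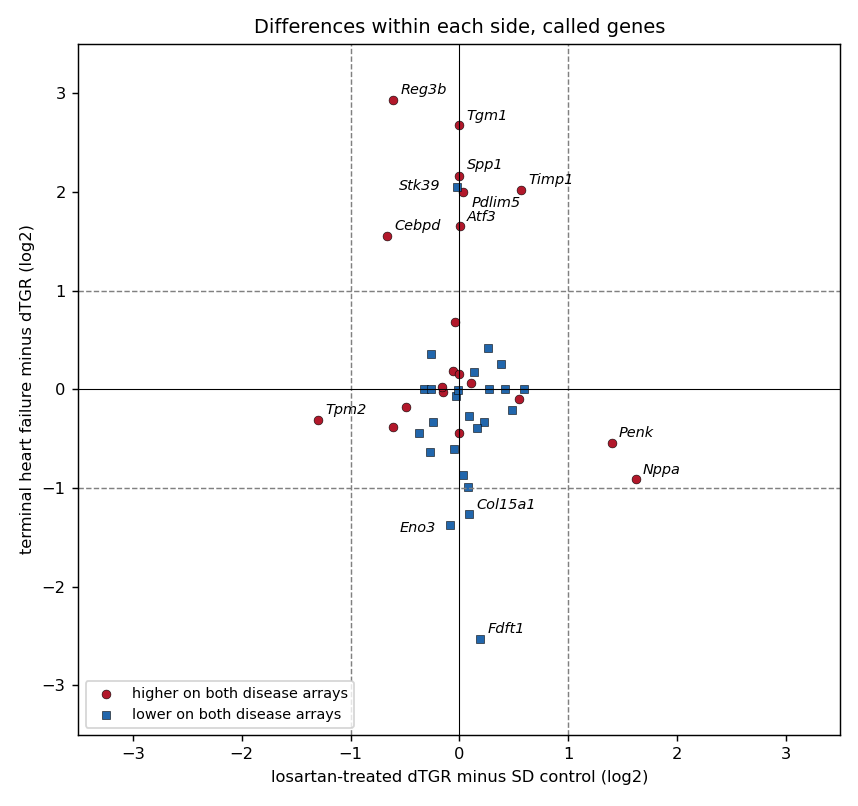
For the 45 called genes, the log2 difference of losartan-treated dTGR minus SD control (horizontal axis) is plotted against that of terminal heart failure minus dTGR (vertical axis), with circles for higher genes, squares for lower genes and dashed lines at 2-fold. Points spread along the vertical axis, from Reg3b at the top to Fdft1 at the bottom, and Nppa, Penk and Tpm2 are the ones outside the dashed lines on the horizontal axis.

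Because each array enters 2 of the 4 differences, pairs with no array in common were also set side by side, a comparison added after the data had been seen. Within chip lots, dTGR exceeded SD control by 2-fold or more for 282 genes and terminal failure exceeded losartan for 251, and 35 were in both sets (12.4% of the former and 13.9% of the latter). For lower genes the counts were 212 and 247 with 33 shared (15.6% and 13.4%). Genes that ran in opposite directions numbered 11 (3.90% of the 282 and 4.45% of the 247) and 16 (7.55% of the 212 and 6.37% of the 251). Across lots, dTGR against losartan gave 348 genes higher and terminal failure against SD control 215, with 40 in both (11.5% and 18.6%). Lower genes numbered 214 and 283, with 41 in both (19.2% and 14.5%). In opposite directions ran 26 (7.47% of the 348 and 9.19% of the 283) and 11 (5.14% of the 214 and 5.12% of the 215). All these counts are out of 3815 genes, and the overlap that set sizes alone would give was not computed. In both arrangements most genes past 2-fold in 1 pair were not past it in the same direction in the other pair. The pairs differ in the comparator as well as in the disease array.

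Other probe sets of the called genes were read as a check of the chip against itself. For 8 of the 20 higher genes 13 other probe sets lay above the floor, of which 13 had a mean difference in the same direction, 8 were called and 0 had all 4 differences the other way. For 11 of the 25 lower genes there were 17, with 13 in the same direction, 4 called and 2 fully opposite. Some of these probe sets were made from the same sequence record and are not independent. If any probe set may stand for its gene, 32 genes were higher and 30 lower. The 12 added higher genes were Cebpb, Dusp6, Cdkn1a, Ccl2, Jun, Myc, Hspb1, Errfi1, A2m, Bad, Slc1a1 and Defb1. Cebpb, a partner of Cebpd in the acute phase, read 118 and 72.8 against 6.01 and 5.01 on that probe set, but its brightest one read 849 and 221 against 278 and 79.5, with losartan above dTGR. Myc, a transcription factor of cell growth, read 172 and 59.0 against 6.07 and 4.04 on the called probe set and 207 and 56.9 against 47.4 and 35.4 on the brightest. The 5 added lower genes were Alas1, Cyb5a, Scd2, Gjb5 and Slc5a1, and for Alas1, the first enzyme of heme synthesis, the called probe set read 316 and 405 against 1068 and 880 and the brightest 536 and 1050 against 1468 and 1897.

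The probe set with the widest gap on the whole chip could not be given to 1 gene. Its annotation lists several metallothionein symbols, which encode small metal-binding proteins, and it read 10230 in terminal failure and 1775 in dTGR against 45.7 with losartan and 12.0 in SD control. Another, annotated with several symbols of inducible Hsp70 chaperones, read 4567 and 214 against 83.1 and 19.1, so terminal failure stood far above dTGR. In all, 4 called higher probe sets had several symbols and 6 had none, and 1 and 6 of the lower ones. The threshold itself cut through a continuum. Just inside it on the higher side stood Myl1 at 2.03-fold, Pdlim5 at 2.05-fold and Vsir at 2.06-fold, and just outside F13a1 and Max at 1.98-fold and Uck2 at 1.96-fold. On the lower side Pip4k2c at 2.0-fold, Vldlr and Dhrs7c at 2.01-fold stood just inside, and Pdp2 at 1.99-fold, Gnrh1 at 1.97-fold and Gramd4 at 1.95-fold just outside.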

How the data were processed

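The values are linear intensities deposited for every probe set of every array. The software and background handling were not given in the sources used here, but the 4 trimmed means were already alike (200.2 to 200.3), so the authors' values appear globally scaled. Of the values from 1 to under 32, 13625 of 15281 had the form of a day and month, against 0 of those of 32 or more, so low values were probably altered by a spreadsheet, by less than 1 unit. Each array was scaled to a common mean with 2% trimmed from each end, values under the 40th percentile (26.0) were raised to this floor, and log2 values were used (Python 3.11.15, pandas 2.3.3). Quantile and cyclic loess scaling (limma 3.58.1, R 4.3.3) were among 15 other settings tried. The platform annotation gave 1 symbol to 7006 probe sets, several to 308 and none to 1426. A gene (4736 in all) stands by the probe set whose mean log2 was highest. A fold against a value under the floor is a lower bound. The counting code was checked on simulated intensities.

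The text names the called genes with the widest separation (15 each way, above the floor on all 4 arrays), up to 5 each way with both dim arrays under the floor, up to 4 members of each list and a fixed set (Nppa, Nppb, Myh6, Myh7, Acta1, Atp2a2, Agt, Col1a1, Timp1, Spp1). All other genes were named after their values were seen. The members and the 20 pathway and 14 marker lists were chosen with earlier results of these data known, and the TATA motif, the pairs of arrays and the any-probe-set count after seeing the data.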

Additional observations from a re-analysis of the deposited data

Results flagged for a closer look

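Rock2, a kinase of the cytoskeleton that acts downstream of RhoA, was the 1 gene with terminal heart failure above both comparator arrays by at least 2-fold and dTGR below both by at least 2-fold, and 0 genes had the reverse pattern. Its intensity was 129.6 in terminal heart failure and 24, under the floor, in dTGR, with 53.8 in losartan-treated dTGR and 53.4 in SD control. Its other probe set read 83.2, 12.0, 34.6 and 37.0, in the same order. With 1 array per group this difference was not tested.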

How the results depend on the processing

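Of the 20 higher genes 7 (Atf3, Hmox1, Nppa, Penk, Reg3b, Thbs4 and Tpm2) were called under all 9 alternatives that kept the 4 arrays and the 2-fold threshold. Of the 25 lower genes 4 were (Bmyc, Col15a1, Eno3 and Id2). A lower floor, no floor and a floor asked for on any 1 array only loosen the rule. These and the rounding of values under 32 kept all 20 and all 25, so the other alternatives decided. Besides the number of arrays, the floor and the fold threshold moved the counts. With the floor at the 25th percentile, 110 probe sets and 49 genes were higher and 80 and 43 lower. With it at the 60th percentile these were 23 and 10, and 18 and 12, and without a floor 230 and 98, and 172 and 78. A 1.5-fold threshold gave 156 probe sets and 75 genes higher and 175 and 116 lower, and a 3-fold one 10 and 5, and 1 and 1. With the median over probe sets 16 genes were lower, and with any called probe set 32 were higher. Leaving out 1 array gave 114 to 335 probe sets and 54 to 176 genes higher, and 117 to 215 and 68 to 127 lower, which follows from asking for fewer differences.

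Higher genes with terminal failure at least 2-fold above dTGR numbered 4 after scaling to the same median, 12 and 4 with the floor at the 25th and 60th percentile, 17 without a floor, 14 and 3 at 1.5-fold and 3-fold, and 14 to 14 with a comparator array left out. Lower genes with terminal failure 2-fold below dTGR numbered 5 with the lower floor, 12 without a floor and 0 at 3-fold. Pathway list genes called higher numbered 23 without a floor, 27 at 1.5-fold, 5 at 3-fold and 23 to 65 with an array left out, and lower 5 after scaling to the same median, 6 without a floor, 16 at 1.5-fold, 0 at 3-fold and 7 to 31 with an array left out. For the scaling differences the cause was not tested. The list medians of contraction, heat shock, growth factor, cell cycle, ion channel, cardiomyocyte, skeletal muscle, adipocyte and liver genes changed sign between settings. No paired analysis was possible because each group has 1 array, so the replicate numbers pair nothing. Pairs of arrays that share a chip lot are counted in the report. Signal over the floor limits genes near 26.0, whose folds are bounds.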
